A study of Mus musculus with 26 samples.

Results

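Fas, Fasl, Tnfsf10, Tnfrsf10b, Fadd, Casp8, Cflar and Xiap carry or restrain the death signal that starts at the cell surface. These 8 genes were chosen by symbol, out of 25814 genes listed, and each was found once in every table. The RNA came from T cells that were sorted by flow cytometry out of Peyer's patches, the lymphoid follicles of the small intestine, in C57Bl/6 mice. The series asks how antigen in food affects these cells. CD4+ T cells came from mice on a conventional diet (n = 6 libraries) or on an elemental diet (n = 6), in which free amino acids take the place of protein. A second sort split T cells of conventionally fed mice by CD44, a receptor for hyaluronan that rises on activated and memory T cells, into CD44+ (n = 7) and CD44- (n = 7) libraries. Libraries of CD4+ cells were made from 22 ng of RNA and those of CD44+ and CD44- cells from 1 ng with a low-input kit, per the labels' protocols, so the sorts were compared only within these pairs. Beyond the strain the labels give neither genotype nor age, and they leave unsaid if CD4 was part of the CD44 gate and if each replicate was its own animal. All p-values thus reflect how far these libraries differ, which may be partly technical.

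Death ligands of the TNF family are trimers on the surface of activated lymphocytes and other cells. When FAS ligand or TRAIL binds its receptor, the receptor's death domain recruits the adaptor FADD, and FADD gathers caspase-8 into a complex in which the protease activates itself. c-FLIP, a relative of caspase-8 without its catalytic activity, enters the same complex and limits this step, and XIAP blocks the caspases that act after it. In Peyer's patches FAS is known as a marker of germinal centre B cells, and the FAS system removes activated T cells after a response.

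Fas and Fasl, a receptor and its ligand, are shown by the 250 bases before their annotated starts, since Fas was the member whose level differed between the diets and Fasl encodes its partner. Fas lies on chromosome 19 from 34290659 to 34327770 on the plus strand (ENSMUSG00000024778), and Fasl on chromosome 1 from 161780689 to 161788495 on the minus strand (ENSMUSG00000000817). The windows, from RefSeq's GRCm38.p6, are chr19:34290409-34290658, plus strand, and chr1:161788496-161788745, minus strand. Each is written 5′ to 3′ on the gene's own strand. Capitals mark GGGCGG, the GC box of Sp1 factors, and GGAAA, the core letters of NFAT and ETS sites, on either strand.
Fas: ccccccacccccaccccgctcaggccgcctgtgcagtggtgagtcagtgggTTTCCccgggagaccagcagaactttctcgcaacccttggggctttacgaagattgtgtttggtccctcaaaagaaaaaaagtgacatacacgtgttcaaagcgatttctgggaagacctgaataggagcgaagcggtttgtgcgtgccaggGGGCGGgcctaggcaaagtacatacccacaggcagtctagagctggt
Fasl: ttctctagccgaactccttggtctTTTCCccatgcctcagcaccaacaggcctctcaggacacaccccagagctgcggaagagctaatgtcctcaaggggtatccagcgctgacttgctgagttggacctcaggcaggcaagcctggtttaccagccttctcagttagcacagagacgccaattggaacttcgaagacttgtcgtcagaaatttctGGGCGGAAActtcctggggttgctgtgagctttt
Each window held 1 GC box, which starts 47 bases before the start of Fas and 34 bases before that of Fasl. The Fas window held GGAAA once, on the other strand, with its first printed letter 199 bases before the start. In the Fasl window GGAAA occurred once on each strand, 226 and 30 bases before the start, and the nearer copy overlaps the GC box. TATAAA was in neither window. Of 32851 windows of this length, 32.7% held GGGCGG, 55.6% GGAAA and 12.4% TATAAA on either strand. These letters describe the sequence and were not tied to any level measured here. A window was found for 7 of the 8 members.

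The other members lie on several chromosomes. Cflar (ENSMUSG00000026031, chromosome 1 from 58711508 to 58758884) and Casp8 (ENSMUSG00000026029, chromosome 1 from 58795374 to 58847503) are neighbours on the plus strand with 36489 bases between them. Tnfsf10 (ENSMUSG00000039304) lies on chromosome 3 from 27317028 to 27342427, Tnfrsf10b (ENSMUSG00000022074) on chromosome 14 from 69767472 to 69784411, and Fadd (ENSMUSG00000031077) on chromosome 7 from 144577318 to 144582463. Xiap (ENSMUSG00000025860) lies on chromosome X from 42059679 to 42109656. Reads that matched several places mattered most for Tnfrsf10b, where 75.5% of exon reads over the 26 libraries were unique, and for Casp8, where 96.0% were. Tnfrsf10b values are therefore uncertain.

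Each CD4+ library held 16401589 to 25415205 exon reads, and each CD44+ or CD44- library 7180390 to 13378353. Levels are CPM, a gene's exon reads scaled to the library's total after TMM correction. Cd3e was found in every library. Cd4 ran from 224 to 449 CPM (median 356) on the conventional diet and from 182 to 284 CPM (median 255) on the elemental diet. Cd44 had medians of 138 and 89.3 CPM in the same libraries. In the CD44 sorts Cd4 ran from 38.5 to 482 CPM (median 91.5) in CD44- and from 12.5 to 69.6 CPM (median 28.8) in CD44+ libraries. There Cd8b1 ran from 0.288 to 51.1 CPM (median 29.5) in CD44- and from 0.119 to 93.9 CPM (median 70.6) in CD44+ libraries. Cd8a had medians of 12.6 and 0.198 CPM. On the conventional and elemental diets the medians were 15.6 and 22.4 CPM for Cd8b1 and 28.0 and 17.1 CPM for Cd8a. The share of CD8 cells in the CD44 sorts was not tested, so these libraries are not taken as CD4+ cells only. In the CD44 sorts Cd44 overlapped between the groups, from 47.5 to 139 CPM in CD44- and from 89.2 to 362 CPM in CD44+ libraries. The Y-linked gene Ddx3y was at most 0.103 CPM in the CD4+ libraries and at least 12.3 CPM in the CD44 sorts, a contrast between the sorts that neither comparison crosses. The spread between libraries differed. The median gene had a coefficient of variation (SD as a percent of the mean) of 21.5% in conventional and 20.1% in elemental libraries, and of 80.4% in CD44- and 82.8% in CD44+ libraries.

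Of the 8 members, 1 differed between the diets. Fas fell on the elemental diet to 0.743 times its conventional level, and the other 7 did not pass the test (edgeR's quasi-likelihood test, Benjamini-Hochberg adjusted p under 0.05, called below). Across all 11938 genes tested 17.4% were called, 7.75% lower and 9.68% higher on the elemental diet, so 1 of 8 is a share near the background. The members' median log2 fold change was 0.11, beside -0.01 over all genes tested. All 8 members passed the filter on low counts in this comparison, and 0 of 8 had groups that did not overlap, against 7.16% of all genes.

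Fas encodes the receptor of FAS ligand. It ran from 17.6 to 23.4 CPM in the conventional libraries, with a median of 20.9, and from 12.8 to 19.6 CPM in the elemental libraries, with a median of 14.7. In 6 of 6 elemental libraries it was below the conventional mean, but elemental replicate 6, at 19.6 CPM, was above the lowest conventional libraries, so the groups overlapped. The means were 20.5 ± 2.06 and 15.3 ± 2.30 CPM (SD, n = 6 each), and the log2 fold change was -0.43 ± 0.12 (SE; edgeR adjusted p = 0.0286). The call was lost when 1 of these replicates was left out, namely conventional 1, 2 and 4 and elemental 1, 4 and 5 (edgeR adjusted p from 0.0527 to 0.0737), while the log2 fold change stayed between -0.51 and -0.38 in all 12 fits that left out 1 library. It was also lost when the more variable CD44 libraries shared the fit (-0.42, edgeR adjusted p = 1).

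Markers of germinal centre B cells and follicular helper T cells moved in the same libraries. The 4 germinal centre B cell markers used, Rgs13, Mef2b, Gcsam and S1pr2, all fell, and their summed level ran from 71.3 to 131 CPM on the conventional diet and from 27.5 to 36.0 CPM on the elemental diet. Of 10 follicular helper T cell markers 9 fell, and their sum ran from 873 to 1131 CPM and from 437 to 683 CPM. Plasma cell markers fell in 3 of 6, with sums from 921 to 1963 CPM and from 395 to 867 CPM. B cell markers fell in 3 of 10, with overlapping sums, and alpha-beta T cell genes in 4 of 12, with sums from 4583 to 5393 CPM and from 4374 to 5007 CPM. None of these lists had a called rise, and none of these markers was at 0 in all 12 libraries. Other lists went up or were mixed. Called rises were 11 of 11 tested myeloid and dendritic markers, 5 of 12 epithelial markers and 1 of 2 CD8 genes, with 0 called falls. NK, gamma-delta T and innate lymphoid markers rose in 2 of 5 tested and fell in 1, and stromal and endothelial markers fell in 1 of 3. Over all genes tested 7.75% were called lower and 9.68% higher. The part of any of these cells in the fall of Fas was not tested. In bulk RNA, fewer cells of a type and less RNA per cell cannot be told apart. Dennd2d, a DENN domain gene, had the pattern most like that of Fas over the 12 libraries. The root mean square difference of their centred log2 CPM was 0.13, where Fas itself had an SD of 0.28. Lat2, an adaptor of B cells and mast cells, was next with 0.14. Their log2 fold changes were -0.48 ± 0.08 (edgeR adjusted p = 0.00154) and -0.50 ± 0.17 (edgeR adjusted p = 0.0528), so Lat2 was not called.

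**Figure D1:**
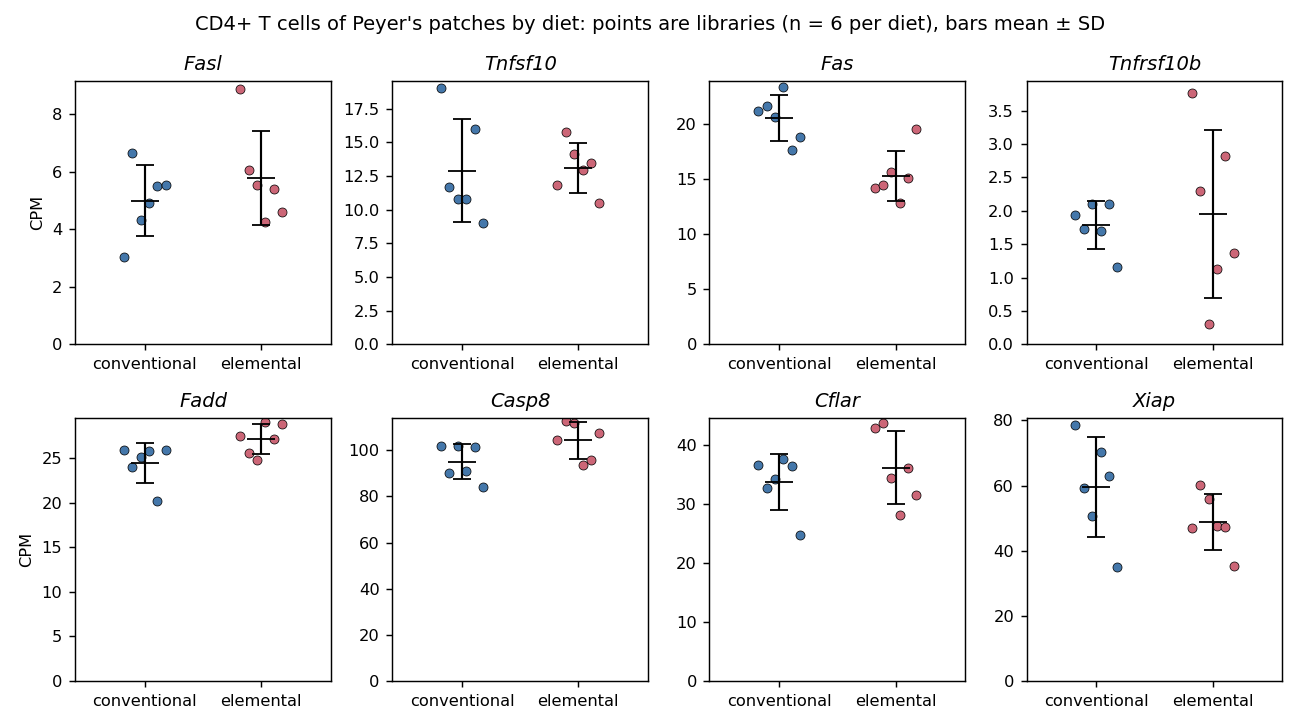
CPM of each member (y axis, from 0) in the CD4+ libraries by diet (x axis), with 1 point per library and the mean ± SD. Fas lies between 17.6 and 23.4 CPM on the conventional diet and between 12.8 and 19.6 CPM on the elemental diet, and the diets overlap in every panel.

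The death ligands overlapped between the diets. Fasl, the ligand of FAS and a product of activated and cytotoxic T cells, ran from 3.04 to 6.65 CPM (median 5.22) on the conventional diet and from 4.27 to 8.87 CPM (median 5.47) on the elemental diet. Its log2 fold change was 0.21 ± 0.23 (edgeR adjusted p = 0.539), with an interval of 2 SE from -0.25 to 0.68. Fasl was read 70 to 174 times per CD4+ library, which limits its precision. Markers of NK cells, gamma-delta T cells and innate lymphoid cells, which can also make Fasl, rose in 2 of 5 tested and fell in 1, and summed to between 89.7 and 135 CPM on the conventional and between 130.3 and 245 CPM on the elemental diet. Over all genes tested 9.68% rose and 7.75% fell. The list includes Tyrobp and Fcer1g, adaptors that are shared with myeloid cells. Of its other genes, Tcrg-C1 was at 0 in all 12 libraries and Ncr1 was at most 1.81 CPM. The sum is thus not particular to these cells, and their part in the Fasl level was not tested. Tnfsf10, which encodes TRAIL, ran from 8.9985 to 19.1 CPM (median 11.3) and from 10.5 to 15.8 CPM (median 13.2). Conventional replicate 1 was the highest of its group and replicate 6 the lowest. Its log2 fold change of 0.02 ± 0.18 (edgeR adjusted p = 0.942) had an interval from -0.34 to 0.39, and its sign turned with library totals and with 6 of the 12 libraries left out in turn.

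Tnfrsf10b, a mouse receptor of TRAIL, was the lowest member. It ran from 1.16 to 2.10 CPM (median 1.84) on the conventional diet and from 0.310 to 3.77 CPM (median 1.84) on the elemental diet. The medians were alike, and the elemental libraries were spread more widely, with a coefficient of variation of 64.5% against 19.8%, a difference that was not tested. Tnfrsf10b had only 19 to 49 exon reads per conventional and 6 to 74 per elemental library, which limits its precision. The lowest value, in elemental replicate 3, rested on 6 reads. The log2 fold change was 0.12 ± 0.45 (edgeR adjusted p = 0.866), with an interval from -0.78 to 1.02, and its sign turned with library totals.

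Fadd and Casp8, the adaptor and the protease of the death complex, were the steadiest members. Fadd ran from 20.2 to 26.0 CPM (median 25.5) on the conventional diet and from 24.8 to 29.1 CPM (median 27.3) on the elemental diet. It was above the conventional mean in 6 of 6 elemental libraries, with a log2 fold change of 0.15 ± 0.096 that was not called (edgeR adjusted p = 0.286). Casp8 ran from 84.2 to 102 CPM (median 96.3) and from 93.5 to 113 CPM (median 106). It was above the conventional mean in 5 of 6 elemental libraries, with a log2 fold change of 0.13 ± 0.080 (edgeR adjusted p = 0.245). The intervals of 2 SE ran from -0.045 to 0.34 for Fadd and from -0.026 to 0.29 for Casp8, the narrowest of the members.

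Among the inhibitors, Cflar, which encodes c-FLIP, ran from 24.7 to 37.7 CPM (median 35.3) on the conventional diet and from 28.1 to 43.7 CPM (median 35.3) on the elemental diet. Its log2 fold change was 0.10 ± 0.13 (edgeR adjusted p = 0.611), with an interval from -0.16 to 0.36, and its sign turned with library totals. Xiap, the inhibitor of effector caspases, had means of 59.5 ± 15.3 and 48.9 ± 8.53 CPM (SD, n = 6 each). It ran from 35.1 to 78.7 CPM (median 61.1) and from 35.4 to 60.2 CPM (median 47.4), with replicate 6 the lowest on both diets. Of the elemental libraries 5 of 6 were below the conventional mean, and the log2 fold change of -0.29 ± 0.17 was not called (edgeR adjusted p = 0.239). Without conventional replicate 6 Xiap was called, at -0.40 (edgeR adjusted p = 0.0285). That library also had the highest summed epithelial level of its group, 1048 CPM against a group median of 336 CPM. Its sums were likewise the highest of the group for alpha-beta T core, NK and innate lymphoid, follicular helper T, myeloid and erythroid markers. A link of any of these to Xiap was not tested.

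The balance within each library was given as a ratio of CPM, which does not depend on scaling between libraries. CPM were not divided by exon length here, which is 7870 bases for Cflar and 2893 for Casp8. The ratios can thus be compared between libraries, but they do not tell which gene of a pair had more RNA. Cflar to Casp8 ran from 0.294 to 0.413 (median 0.359) on the conventional diet and from 0.293 to 0.411 (median 0.342) on the elemental diet. These ranges almost coincide. Fasl to Fas ran from 0.143 to 0.313 (median 0.253) and from 0.236 to 0.624 (median 0.357). The elemental libraries tended to the upper side, with overlap.

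Of 44 tested genes of the wider pathway, 9 rose and 5 fell on the elemental diet, with a median log2 fold change of 0.02. Over all genes tested 9.68% rose and 7.75% fell, 17.4% in all, and the lists were chosen with earlier results of these data known. With library totals as the only scaling the split was 6 higher and 6 lower, and the count of 14 calls became 8 without conventional replicate 4 and 9 without conventional replicate 5 or elemental replicate 4. Other ligands and receptors rose in 5 of 9 tested genes and fell in 0. Tnfrsf25, which encodes the death receptor DR3, rose from 22.0 ± 4.79 to 33.6 ± 4.32 CPM (0.61 ± 0.15, edgeR adjusted p = 0.0106). Tnfrsf1a, the main TNF receptor, rose from 35.1 ± 2.23 to 43.8 ± 3.97 CPM (0.32 ± 0.086). Neither gene overlapped between the diets, as was so for 7.16% of all genes tested. Ltb, a lymphotoxin chain, changed by 0.35 ± 0.099 and Tnfrsf21, the death receptor DR6, by 1.11 ± 0.33. Lta, the remaining called gene, named after its value was seen, changed by 0.41 ± 0.13. With library totals as the only scaling, all 5 kept their sign, and Tnfrsf1a, Tnfrsf21 and Lta lost their calls (edgeR adjusted p = 0.201, 0.0600 and 0.145). The Ltb call was lost when conventional 1, 2, 4 or 5, or elemental 4 or 6, was left out (up to edgeR adjusted p = 0.0643). That of Tnfrsf21 was lost when conventional 1, 3, 4 or 5, or elemental 1 or 4, was left out (up to 0.0780), and that of Lta without conventional replicate 1 to 5 or elemental replicate 2, 3, 5 or 6 (up to 0.0988).

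Of 16 adaptors, ubiquitin ligases and necroptosis genes, 1 fell and 0 rose, where 17.4% of all genes tested were called, 7.75% lower. The called gene was Ripk3, the kinase of necroptosis, which fell from 34.0 ± 4.30 to 26.1 ± 3.78 CPM (-0.38 ± 0.12, edgeR adjusted p = 0.0345). The Ripk3 call was lost when conventional 1, 4 or 5, or elemental 1, 2, 4, 5 or 6, was left out (up to 0.0830). Of 7 tested caspase genes besides Casp8, 1 rose and 1 fell. Casp6, an effector caspase, rose from 21.7 ± 1.66 to 32.0 ± 4.28 CPM (0.56 ± 0.11, edgeR adjusted p = 0.00287). Its groups did not overlap, as was so for 7.16% of all genes tested. Casp2 changed by -0.27 ± 0.091 (edgeR adjusted p = 0.0495), a call lost with DESeq2 size factors (0.0618) and on leaving out conventional replicate 1, 2, 3, 4, 5 or 6 or elemental replicate 1, 3, 4 or 5 (up to 0.0950).

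Genes of the effector step split into 3 higher and 3 lower of 12, against 17.4% called in either direction over all genes. Naip5, an inflammasome sensor with inhibitor-of-apoptosis repeats, rose from 1.196 ± 0.445 to 3.95 ± 1.71 CPM (1.72 ± 0.36), and Endog, a mitochondrial nuclease, from 20.0 ± 4.50 to 30.1 ± 3.67 CPM (0.59 ± 0.14). Birc5, which encodes survivin and is made by dividing cells, fell from 21.1 ± 6.00 to 9.85 ± 3.88 CPM (-1.10 ± 0.24). Birc6, a large ubiquitin ligase that inhibits apoptosis, fell from 20.3 ± 6.94 to 10.99 ± 2.46 CPM (-0.89 ± 0.23). These 4 calls held in all 12 fits that left out 1 library. In the same libraries 11 of 11 tested myeloid and dendritic markers rose, and their sum ran from 430 to 582 CPM on the conventional diet and from 842 to 1566 CPM on the elemental diet. Of 12 epithelial markers 5 rose and 0 fell, and their sum ran from 75.7 to 1048 CPM and from 675 to 1635 CPM. The part of these cells in the pathway genes that rose was not tested.

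**Figure D2:**
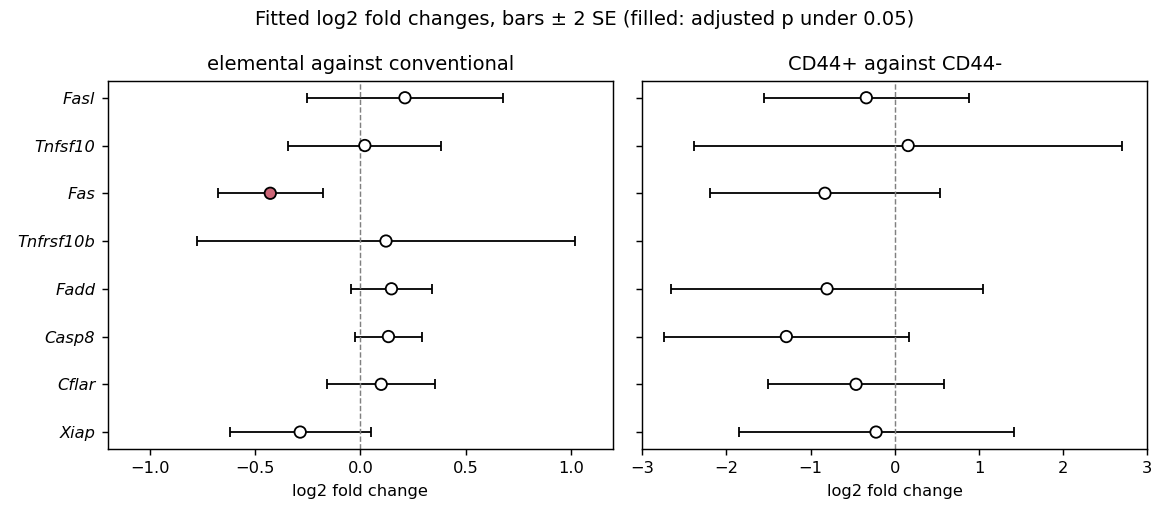
Log2 fold change of each member (x axis, different ranges) for elemental against conventional diet (left) and CD44+ against CD44- cells (right), with bars of ± 2 SE and filled points for calls. Fas on the left is the 1 filled point, at -0.43, and each bar on the right is wider than its counterpart on the left. Tnfrsf10b was not tested on the right.

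The CD44 sorts gave no call among the members. Of 7 tested members, 0 were called by edgeR, and in that fit 0 had an unadjusted p under 0.05. DESeq2 and limma-voom also called 0, though limma-voom gave an unadjusted p of 0.0369 for Casp8 and 0.0463 for Fas. With edgeR, the unadjusted p of Casp8 was 0.0454 on total gene reads and 0.0306 without CD44+ replicate 5, again not called. Across the 8343 genes tested 0.767% were called. The members' median log2 fold change was -0.46, beside 0.03 over all genes tested, and 6 of 7 had a negative value. Intervals were wide, and each of the 7 included 0.

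Fasl was held more evenly in CD44- than in CD44+ libraries. It ran from 41.0 to 95.2 CPM (median 66.8) in CD44- cells and from 3.72 to 110 CPM (median 54.8) in CD44+ cells, where replicates 4 and 5 were low. The coefficients of variation were 29.5% and 82.5%, a difference that was not tested. Its log2 fold change was -0.34 ± 0.61 (edgeR adjusted p = 0.868), with an interval from -1.56 to 0.88. Of 9 NK, gamma-delta T and innate lymphoid markers 3 were tested, and 1 of these rose in CD44+ cells. The list, which includes the shared adaptors Tyrobp and Fcer1g, summed to between 49.9 and 300.4 CPM in CD44- and between 316 and 713 CPM in CD44+ libraries. Klra8 and Tcrg-C1 were at 0 in every library of both sorts, and Ncr1 was at most 0.129 CPM. The part of these cells in the Fasl level was not tested. Tnfsf10 varied most of all members in the CD44+ libraries. It ran from 1.03 to 65.9 CPM (median 5.44) in CD44- cells and from 0.0989 to 129 CPM (median 0.931) in CD44+ cells. In 4 of 7 CD44+ libraries it was under 1 CPM, while replicate 1 stood at 129 CPM with 1087 exon reads. Its log2 fold change was 0.16 ± 1.27 (edgeR adjusted p = 0.972), and -2.34 without CD44+ replicate 1, again not called.

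Fas ran from 30.2 to 174 CPM (median 101) in CD44- cells and from 0.597 to 119 CPM (median 73.8) in CD44+ cells. The lowest value, in CD44+ replicate 5, rested on 5 reads. Of the CD44+ libraries 6 of 7 were below the CD44- mean, and the log2 fold change of -0.83 ± 0.68 was not called (edgeR adjusted p = 0.668), with an interval from -2.19 to 0.53. These 4 germinal centre B cell markers summed to between 3.02 and 114 CPM in CD44- and to between 83.0 and 184 CPM in CD44+ libraries, with 0 of 3 tested ones called. Tnfrsf10b did not pass the filter on low counts in this comparison. It was under 1 CPM in 5 of 7 CD44- and 6 of 7 CD44+ libraries, and reached 14.5 and 6.08 CPM in replicate 6 of each group.

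Casp8 had the largest fitted difference. It ran from 7.08 to 192 CPM (median 82.6) in CD44- cells and from 6.52 to 112 CPM (median 41.5) in CD44+ cells, with 6 of 7 CD44+ libraries below the CD44- mean. The log2 fold change was -1.29 ± 0.73 (edgeR adjusted p = 0.473), with an interval from -2.74 to 0.17. CD44+ replicates 1, 4 and 7 lay between 6.52 and 7.91 CPM, and CD44- replicate 6 at 7.08 CPM. Fadd ran from 2.09 to 61.6 CPM (median 9.30) and from 2.25 to 29.9 CPM (median 2.74), and its log2 fold change was -0.81 ± 0.93 (edgeR adjusted p = 0.783). Without CD44- replicate 6, the highest library, it was -0.073.

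Cflar was the steadiest member of the CD44+ libraries. It ran from 36.5 to 107 CPM (median 58.1) in CD44- cells and from 11.1 to 79.3 CPM (median 29.2) in CD44+ cells, with coefficients of variation of 40.2% and 60.7%. The log2 fold change was -0.46 ± 0.52 (edgeR adjusted p = 0.779). Xiap ran from 2.66 to 39.8 CPM (median 19.7) and from 2.91 to 54.9 CPM (median 5.94), with CD44+ replicate 7 the highest library of both groups. Its log2 fold change was -0.22 ± 0.82 (edgeR adjusted p = 0.936), and -1.03 without CD44+ replicate 7. Cflar to Casp8 ran from 0.240 to 8.20 (median 0.746) in CD44- and from 0.0994 to 11.1 (median 1.80) in CD44+ libraries. Fasl to Fas ran from 0.449 to 3.15 (median 0.622) and from 0.209 to 19.6 (median 1.34). Both balances overlapped between the sorts. As above, these ratios were not corrected for exon length, so a value over 1 does not mean more RNA of the first gene.

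**Figure D3:**
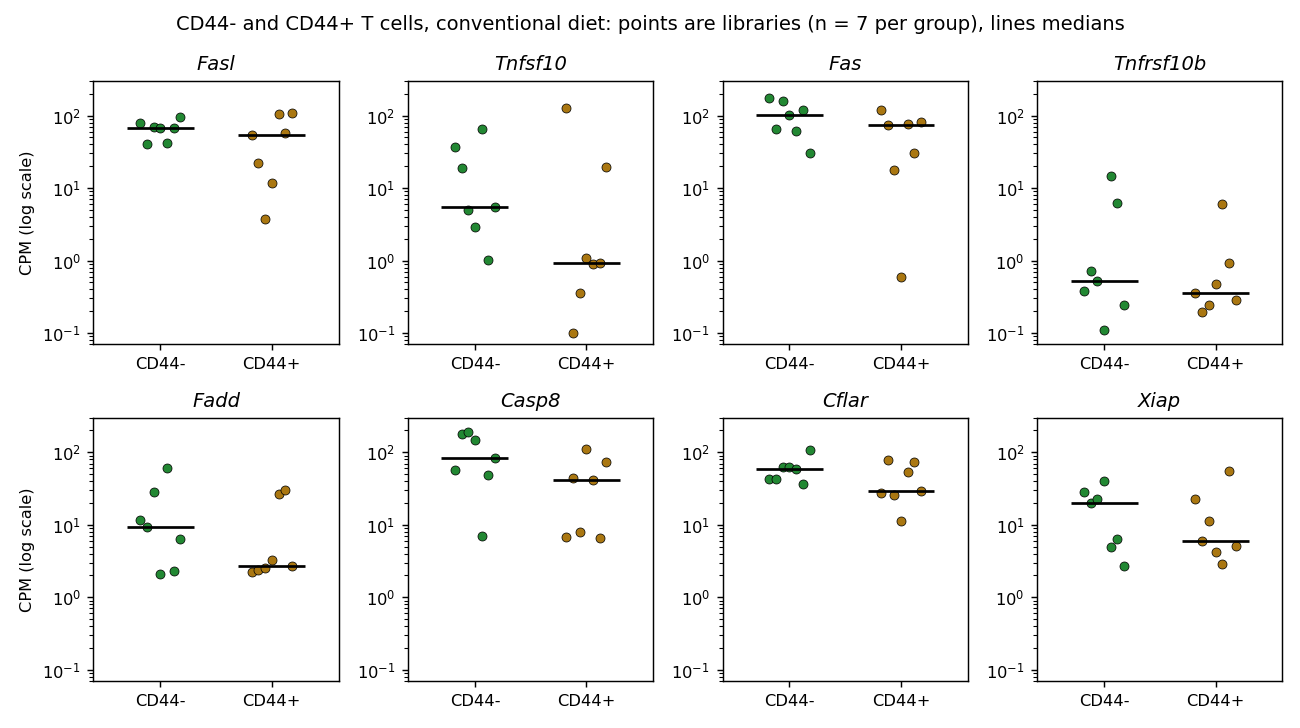
CPM of each member (y axis, log scale) in CD44- and CD44+ libraries (x axis), with 1 point per library and a line at the median. Tnfsf10 in CD44+ cells spans 0.0989 to 129 CPM, and every panel overlaps between the sorts.

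In the wider pathway 0 of 38 tested genes were called between the CD44 sorts by edgeR. At an unadjusted p under 0.05 there was 1, a higher one. DESeq2 called 1 and limma-voom 0. The DESeq2 call, named after its value was seen, was Birc5, the inhibitor made by dividing cells, with a log2 fold change of 1.88 ± 0.60 (DESeq2 adjusted p = 0.0393). Plasma cell markers rose in 2 of 4 tested members in the same comparison, where 0.767% of all genes tested were called. Their sum ran from 397 to 3134 CPM in CD44- and from 3840 to 8084 CPM in CD44+ libraries. Of germinal centre B cell, B cell and follicular helper T cell markers 0 were called. Their median sums were 26.9, 441 and 1939 CPM in CD44- and 117, 1221 and 2493 CPM in CD44+ libraries. The median sums of alpha-beta T core, epithelial and erythroid markers were higher in CD44- libraries. The part of any of these cells in the Birc5 level was not tested.

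Levels can be set side by side between genes only per length, here as CPM per kilobase of annotated exon. In the conventional CD4+ libraries Casp8 led with 32.9 ± 2.61 CPM per kilobase (SD, n = 6), followed by Fas with 11.4 ± 1.14. Xiap with 7.47 ± 1.92 and Fadd with 6.28 ± 0.578 came next, then Cflar with 4.28 ± 0.603. The ligands Fasl, with 2.58 ± 0.635, and Tnfsf10, with 2.45 ± 0.725, and the receptor Tnfrsf10b, with 0.563 ± 0.111, closed the order. Casp8 stood clear of Fas, Fadd of Cflar, and Tnfsf10 of Tnfrsf10b in their ranges over the libraries, while the other neighbours overlapped. The elemental libraries kept this order except that Fadd, with 6.96 ± 0.438, stood above Xiap, with 6.13 ± 1.07.

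In the CD44 sorts Fas headed the order by its mean, with 56.4 ± 29.3 CPM per kilobase in CD44- and 31.7 ± 23.4 in CD44+ cells (SD, n = 7 each). Casp8 stood at 35.2 ± 24.5 and 14.4 ± 13.7, and Fasl at 34.1 ± 10.03 and 26.9 ± 22.2. Cflar followed with 7.49 ± 3.01 and 5.44 ± 3.30, and Tnfrsf10b was lowest with 1.03 ± 1.71 and 0.385 ± 0.678. Between these, Fadd stood at 4.46 ± 5.49 and 2.55 ± 3.22, Tnfsf10 at 3.69 ± 4.57 and 4.12 ± 9.06, and Xiap at 2.24 ± 1.74 and 1.92 ± 2.36. Neighbours in these orders overlapped in their ranges, except that Fasl, at 21.2 or more, stood clear of Cflar, at 13.6 or less, in CD44- cells. Cell population, RNA input, kit and the sex of the animals, by Ddx3y, cannot be told apart between the CD4+ and the CD44 libraries, so the different orders are given side by side only.

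**Figure D4:**
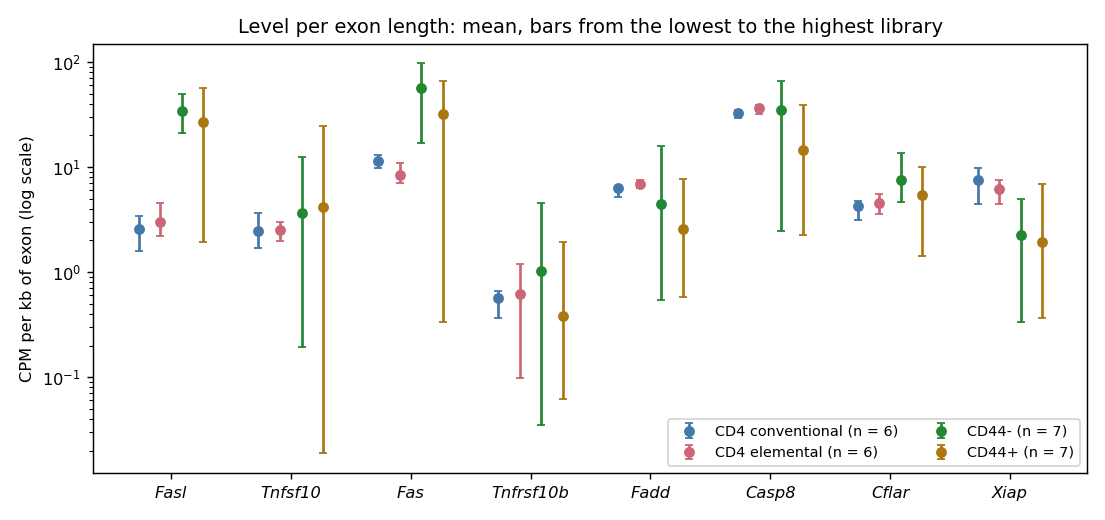
CPM per kilobase of exon (y axis, log scale) of each member (x axis) in the 4 groups, with the mean and bars from the lowest to the highest library. Casp8 and Fas are the highest members in the CD4+ libraries, at 32.9 and 11.4 on the conventional diet, and the bar of Tnfsf10 in CD44+ cells is the longest.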

How the data were processed

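RNA-seq libraries of 26 samples in 4 groups were used. The authors deposited whole read counts per gene for each library, with exon, intron and gene reads and totals that include reads matching several places. Per the submitters' processing notes, reads were placed on GRCm38; aligner and counter: not given in the sources used here. For each pair of groups, the total exon counts were fitted with edgeR 4.0.16 (R 4.3.3), using filterByExpr, TMM factors and a robust quasi-likelihood test, two-sided. A gene was called where its p, adjusted by Benjamini-Hochberg over every gene tested, was under 0.05. SE is the log2 fold change over the square root of F. Log2 CPM used a prior count of 2. Alternatives used DESeq2 1.42.0, limma 3.58.1, other scalings, filters and count columns, a replicate block, all groups in one fit, and leaving out libraries. Figures used matplotlib 3.10.9.

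The members, the 4 pathway lists (48 genes) and the marker lists were chosen with earlier results of these data known. All members are named. Of each pathway list, up to 4 called genes with the smallest adjusted p are named, and the 2 most similar genes of each called member are given, with a minimum of 2 for the gene's mean log2 CPM. Of the marker lists, Bcl11b and Itgam were not analysed here, and 1 further marker is not reported here. Same-numbered libraries were not treated as pairs in the main fit, since the labels do not say that they are. Both CD44 groups carry the same replicate numbers, so paired sorts remain possible there. Deviations from the group means correlated above 0.1 in 2 of 6 diet pairs and 1 of 7 CD44 pairs. Low correlations between libraries as variable as those of the CD44 sorts cannot show that pairs are absent.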

Additional observations from a re-analysis of the deposited data

Results flagged for a closer look

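In 6 of 32 pairs of a member and a group, the highest or the lowest library lay further from the rest than Dixon's 95% limit, a limit that chance passes in about 1 in 20 groups where values are normal. It was applied to CPM, whose spread is skewed here. Over all genes tested, 6.42% passed it in conventional, 5.08% in elemental, 19.2% in CD44- and 25.4% in CD44+ libraries, so the 5 values below from the CD44 sorts are of a kind common in those libraries. Tnfsf10 stood at 128.7 CPM in CD44+ replicate 1, with the next library at 19.7 CPM. Tnfrsf10b stood at 6.08 CPM in CD44+ replicate 6 and at 14.55 CPM in CD44- replicate 6, with the next libraries at 0.931 and 6.29 CPM. Cflar reached 106.7 CPM in CD44- replicate 8, above 63.1 CPM in the next library. Xiap reached 54.95 CPM in CD44+ replicate 7, above 22.7 CPM. In the CD4+ libraries the 1 such value was low. Fadd was at 20.19 CPM in conventional replicate 5, below the next library at 24.0 CPM.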

How the results depend on the processing

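Between the diets, the count of called members (1) was 2 with limma-voom, 0 with the replicate block and 0 with all 4 groups in one fit, and ran from 0 to 2 when 1 library was left out. It was 2 without conventional replicate 6 and elemental replicate 1 together. With the replicate block the adjusted p of Fas was 0.0569 and its log2 fold change -0.43, and with all 4 groups -0.42. Fas kept its sign in all 23 alternatives, from -0.55 to -0.38. Xiap was also called with limma-voom (adjusted p = 0.0419) and without both of these libraries (0.0494). Pathway calls (14) became 0 with all 4 groups and ran from 8 to 20 when 1 library was left out. Library totals alone moved the median gene to -0.13 and the share of calls that were higher from 55.6% to 45.0%, with Fas at -0.55. Calls over all genes (2081) were 4095 with limma-voom, 2 with all 4 groups and 3379 without both libraries, and ran from 1299 to 3865 when 1 library was left out. Signs turned for uncalled members. Tnfsf10 was -0.11 with library totals, -0.011 with total gene reads, -0.032 without both libraries, and ran from -0.065 to 0.17 when 1 library was left out. Tnfrsf10b was -0.020 with library totals, -0.22 with limma-voom, -0.10 with the replicate block, -0.27 without both libraries, and ran from -0.18 to 0.35. Cflar was -0.026 with library totals and -0.029 without both libraries. Between the CD44 sorts, 0 members were called in all 24 alternatives. Pathway calls (0) were 1 with DESeq2 and 5 with all 4 groups. Calls over all genes (64) were 401 with DESeq2, 101 with total gene reads, 37 with the replicate block and 1748 with all 4 groups, and ran from 36 to 87. Tnfsf10 was -2.30 with limma-voom, -0.38 with total gene reads, -1.84 with the replicate block, and ran from -2.34 to 0.86, and Xiap was 0.050 with all 4 groups and ran from -1.03 to 0.10. The cause of these shifts was not tested.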

Other observations

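Reads in introns of the members differed by gene and by library. In the CD4+ libraries introns held a median of 27.2% of Cflar reads on the conventional diet and 28.3% on the elemental diet, against 3.67% and 4.15% for Casp8, 5.39% and 9.58% for Xiap, and at most 2.37% for Fadd. In the CD44 sorts single libraries stood far apart. Xiap reads were from 13.2% to 91.9% intronic in CD44- and from 3.03% to 89.5% in CD44+ libraries, and introns held over 50% of them in 4 of 7 and 3 of 7 libraries. Cflar reads were over 50% intronic in 3 of 7 CD44- and 4 of 7 CD44+ libraries. Casp8 reads were over 50% intronic in 1 of 7 CD44- and 3 of 7 CD44+ libraries, with at most 55.2% and 75.2%. Tnfrsf10b had 3 such libraries in each group, and Tnfsf10 had 1 in CD44- and 2 in CD44+. Fadd had 1, in the CD44- group, at 76.7%. Fas had 1 such library, in the CD44+ group, and Fasl had none, with at most 38.3%. Over all genes, introns took from 9.40% to 29.0% of gene reads in the CD44 sorts and from 3.33% to 4.61% in the CD4+ libraries.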
